A study of Mus musculus with 8 samples.

Results

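The Hox cluster genes were followed in sorted gut cells of E12.5 mouse embryos that carried or lacked Bapx1. A gene was taken as a member when its symbol in the platform annotation was Hoxa, Hoxb, Hoxc or Hoxd followed only by a paralogue number. This gave 38 genes and 57 probes, of 19057 genes and 45281 probes in all. They were 10 HoxA genes on chromosome 6, 10 HoxB genes on chromosome 11, 9 HoxC genes on chromosome 15 and 9 HoxD genes on chromosome 2.

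Hox genes encode homeodomain transcription factors that lie in chromosomal clusters, in an order that matches the order of their expression along the body axis. Low paralogue numbers lie at one end of a cluster and are expressed from anterior levels onward, and high paralogue numbers lie at the other end and are confined to posterior levels. In the gut the mesoderm carries such nested domains, with the highest paralogue numbers in the hindgut and cloaca, and their proteins bind DNA together with the TALE homeodomain cofactors Pbx, Meis and Pknox.

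The cells had been sorted by EGFP fluorescence, expressed from the Bapx1 (Nkx3-2) locus, out of dissected gut, and their RNA had been hybridised to Illumina MouseWG-6 v2 BeadChips. The 4 wildtype samples came from embryos in which an IRES and EGFP had been placed in the 3′ UTR of Bapx1 behind an intact reading frame, an allele that the study names Bapx1 tm2.Tlu and writes as heterozygous. The 4 Bapx1 null samples came from homozygotes for Bapx1 tm4.Tlu, in which EGFP replaced the start of the coding sequence. Both groups were on a mixed C57BL/6J;129 background, both carried EGFP at the locus, and the number of EGFP alleles differed with the genotype. The sort returns cells with an active Bapx1 promoter, not whole gut, and the sources used here do not say whether embryos had been pooled. The methods call the 4 samples of a genotype biological replicates.

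The targeted gene did not check the labels. The probe ILMN_2687592 of Nkx3-2 was not well above background on any array labelled wildtype, at 4.45, 4.50, 4.44 and 4.47 as log2 intensity, while all arrays labelled Bapx1 null detected it, at 6.75, 7.56, 6.65 and 6.46. Its signal was at least 2.79-fold higher on the arrays labelled Bapx1 null, and that of the other probe, ILMN_2687594, at least 2.47-fold. Where these probes lie relative to the deleted and inserted sequence was not analysed here, so they cannot say whether a label is right. Wildtype and Bapx1 null are therefore used below as the labels of the arrays, and every direction rests on them.

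Signal over background differed between arrays. The arrays labelled wildtype detected 38.2% to 40% of all probes and those labelled Bapx1 null 31% to 38.5%, with the lowest value on Bapx1 null replicate 2. Of the markers checked, 10 of 12 gut mesenchyme genes were measured, each on all 8 arrays, and Foxl1 and Gli1 were detected on none. Their mean log2 level per array was 10.27 to 10.54 where the label was wildtype and 9.77 to 10.59 where it was Bapx1 null. By mean 4 were higher in Bapx1 null and 6 lower, from -1.04 for Twist1 to 0.41 for Pdgfrb. None of them passed the threshold, an adjusted p of 0.05 in the limma fit given below. Other cell types differed in how they followed the labels. All tested genes of the fetal liver, blood, gut epithelium and endothelium lists had a lower mean in Bapx1 null. The levels of the enteric neural crest list did not move in a common direction. Of its 6 tested genes 4 were higher and 2 lower (median difference 0.05), with none past the threshold. All 6 were detected on every array labelled wildtype, but only 2 on every array labelled Bapx1 null. Of the arrays labelled Bapx1 null, 1 detected Ret, 1 Phox2a, 2 Elavl4 and 3 Sox10. Erbb3 and S100b were detected on no array. None of the tested fetal liver genes passed the threshold. The 6 measured fetal liver genes, of 12 on the platform, had mean levels of 6.08 to 10.33 in wildtype and 5.07 to 6.14 in Bapx1 null, and the 6 measured blood cell genes, of 10, had mean levels of 7.79 to 8.90 and 5.12 to 6.77. Afp, of the fetal liver, was at 10.55 ± 2.56 (SD, n = 4) in wildtype and 5.71 ± 1.32 in Bapx1 null (adjusted p 0.0787). The platelet genes Pf4 and Ppbp passed the threshold, both lower in Bapx1 null (adjusted p 0.0317 and 0.0204). Of all genes tested 0.787% passed, and 0.256% passed and were lower in Bapx1 null. Pf4 passed in 16 of 25 alternatives and Ppbp in 14 of 24. Ppbp was detected on no array labelled Bapx1 null (4.44 to 4.91). It was tested only because the 4 arrays labelled wildtype detected it, so its call carries that selection. Of the fetal liver list Alb and Fgb were detected on no array, and of the blood list Alas2 and Ptprc. Other members, such as Ttr, Trf, Hbb-y and Adgre1, were detected on all 4 arrays labelled wildtype. Of the arrays labelled Bapx1 null, 3 detected Hbb-y and 1 each detected Ttr, Trf and Adgre1. Of the gut epithelium 5 of 12 genes were tested, all with a lower mean in Bapx1 null and none past the threshold (median difference -0.80), with mean levels per array of 6.71 to 7.49 in wildtype and 6.23 to 6.61 in Bapx1 null and Epcam, Foxa2 and Sox17 never detected. The same held for 5 of 10 endothelial genes (median difference -0.42), at 5.96 to 6.84 and 5.32 to 6.30, with Kdr and Tie1 never detected. The part of these cells in the Hox values below was not tested, and fewer cells of a type and less RNA per cell cannot be told apart in sorted pools.

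The promoter windows of the Hox genes were searched first, since they hold the sequence closest to each start. RefSeq windows of the build GRCm38.p6, from 250 bases before to 50 bases after an annotated start, were at hand for 22 of the 38 genes, in 24 windows. Each window was searched on both strands for the core of the Bapx1 motif in its forms TAAGTG and TGAGTG and for the composite site of Hox and Pbx proteins, TGATTNAT, which do not overlap in the stretches shown. The stretches of 30 bases below hold the matches in genes that were measured on these arrays, 5′ to 3′ on the strand of the gene, with the matching letters in capitals. The first lies at chr11:96318222-96318251 and the second at chr11:96318113-96318142, both on the plus strand. The others lie at chr2:74704511-74704540, chr2:74721946-74721975 and chr2:74674889-74674918 on the plus strand and at chr6:52164924-52164953 on the minus strand.
Hoxb4, TAAGTG on the opposite strand: tggtcggccaacCACTTAaaaccccacaca
Hoxb4, TGAGTG on the opposite strand: ccgacgcctcctCACTCAcctcctacccct
Hoxd8, TAAGTG on the opposite strand: tttaatcaaaacCACTTAgctaggcccaaa
Hoxd4, TGAGTG as written: agagccgggaccTGAGTGgctatttataag
Hoxd12, TGAGTG as written: gccgtcgaacatTGAGTGttatcataatac
Hoxa2, TGATTNAT on the opposite strand: gacttttttggATCAATCAaacagacagtg

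TAAGTG was found in 3 of the 24 Hox windows and in 9.2% of the 32851 windows of all genes. TGAGTG was likewise in 3 Hox windows, and in 16.4% of all windows. TGATTNAT was in 2 Hox windows (8.33%) and in 3.22% of all. The windows with a match that are not shown belong to Hoxd11, which was never detected here. A match is a run of letters and not a bound site.

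A probe was called detected on an array when its detection score, the share of background controls it outshone, was above 0.99. By this measure 21 of the 38 Hox genes were detected on all 8 arrays, 4 on some arrays and 13 on none. The 21 genes were Hoxa2, Hoxa4, Hoxa5, Hoxa7, Hoxa11, Hoxa13, Hoxb2, Hoxb3, Hoxb4, Hoxb5, Hoxb6, Hoxb7, Hoxc6, Hoxc9, Hoxc10, Hoxd3, Hoxd4, Hoxd8, Hoxd9, Hoxd10 and Hoxd12. Hoxa9 and Hoxc5 were detected on 7 arrays each, Hoxc4 on 5 and Hoxa3 on 2.

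**Figure D1:**
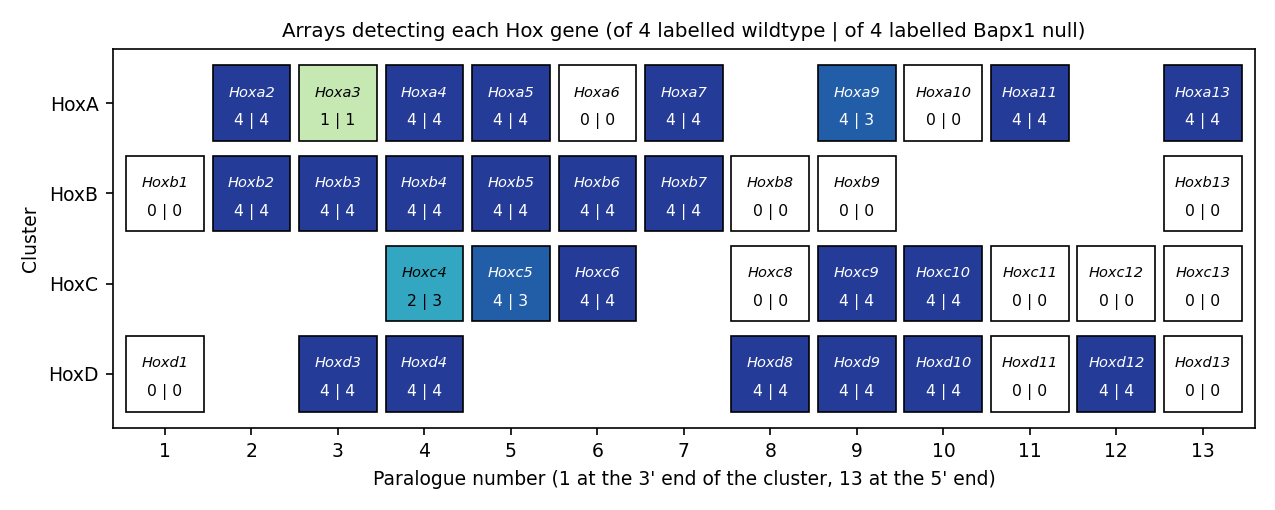
Detection of the 38 Hox genes, with the paralogue number on the horizontal axis and the cluster on the vertical axis. Each box gives the number of arrays with a detected probe of the gene, of 4 labelled wildtype and of 4 labelled Bapx1 null, and white boxes mark the 13 genes detected on no array. In HoxB the detected genes form a single unbroken run, Hoxb2 to Hoxb7, while undetected genes interrupt the other clusters.

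The clusters differed in how the detected genes were placed. In HoxB the run from Hoxb2 to Hoxb7 was detected on every array, while Hoxb1, which marks a single segment of the hindbrain, and Hoxb8, Hoxb9 and Hoxb13 were detected on none. In HoxA the detected genes reached the posterior end of the cluster, with Hoxa11 and Hoxa13 on all 8 arrays, but Hoxa6 and Hoxa10 between them were not detected. HoxC was detected at its anterior and middle members and at Hoxc9 and Hoxc10, with Hoxc8, Hoxc11, Hoxc12 and Hoxc13 undetected. In HoxD only Hoxd1, Hoxd11 and Hoxd13 were undetected, and Hoxd12 between the last 2 was detected on all arrays.

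Taken by position, 13 of the 17 genes of paralogues 2 to 7 were detected on all 8 arrays and 1, Hoxa6, on none. Of the 19 genes of paralogues 8 to 13, 10 were detected on none. Both genes of paralogue 1, Hoxb1 and Hoxd1, were undetected as well. Among the most posterior genes, those of paralogue 13, Hoxa13 was detected while Hoxb13, Hoxc13 and Hoxd13 were not.

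What a probe fails to detect is only a bound. Of the 57 Hox probes, 24 were detected on no array, and 25 of the 38 genes had a single probe. Probes of 1 gene disagreed in several cases. Hoxd12 was detected on all arrays by 1 of its 2 probes and on none by the other, Hoxa13 on all arrays by 1 of its 3 probes, and Hoxa3 on 2 arrays by 1 of its 4 probes. Undetected genes also lay close to the threshold. The highest score that any of the 13 reached on any array ran from 0.783 for Hoxc12 to 0.982 for Hoxb9, and 5 of them passed 0.95 at least once. Just inside the threshold lay Hoxa3, whose highest score was 0.998, and Hoxc4, at 0.999.

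Detection did not separate the genotypes. The arrays labelled wildtype detected 24, 24, 24 and 23 Hox genes and those labelled Bapx1 null 23, 22, 24 and 25. The lowest number was that of Bapx1 null replicate 2, the array with the lowest share of detected probes overall. Hoxa9 and Hoxc5 each missed detection on 1 array labelled Bapx1 null, Hoxc4 on 2 arrays labelled wildtype and 1 labelled Bapx1 null, and no gene was detected in 1 genotype alone.

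To ask whether Bapx1 changed the level of the Hox genes, the 24 genes with a probe detected on at least 4 of the 8 arrays were tested in a limma fit over 9784 genes. None of the 24 passed an adjusted p of 0.05, against 77 of all genes tested, a background of 0.787% (0.531% higher and 0.256% lower in Bapx1 null). The lowest adjusted p of a Hox gene was 0.167, for Hoxa13, which was also the only Hox gene with an unadjusted p under 0.05, whereas 27% of all genes had one. In none of the 24 did the arrays of one label lie wholly above those of the other, against 18.6% of all genes. Leaving out Bapx1 null replicate 4 brought Hoxc9 past the threshold, with a difference of 0.74 and an adjusted p of 0.0415, in a fit where 12.7% of all genes passed, and no other alternative that was run brought a Hox gene past it.

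The intervals show how large a change could have gone unseen. Each difference is the log2 mean of the Bapx1 null arrays less that of the wildtype arrays, and the 24 genes ranged from -0.49 to 0.51. The 95% interval of the difference lay within 1 log2 unit, or a 2-fold change, on either side of 0 for 21 of the 24 (87.5%, against 77.8% of all genes), the exceptions being Hoxc9, Hoxd3 and Hoxd12. Over all 24, the intervals reached from -1.08, a 2.12-fold lower level, to 1.13, a 2.19-fold higher one. The median size of the difference regardless of direction was 0.19 for the Hox genes and 0.28 for all genes, with a median SE of 0.22 and 0.18.

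**Figure D2:**
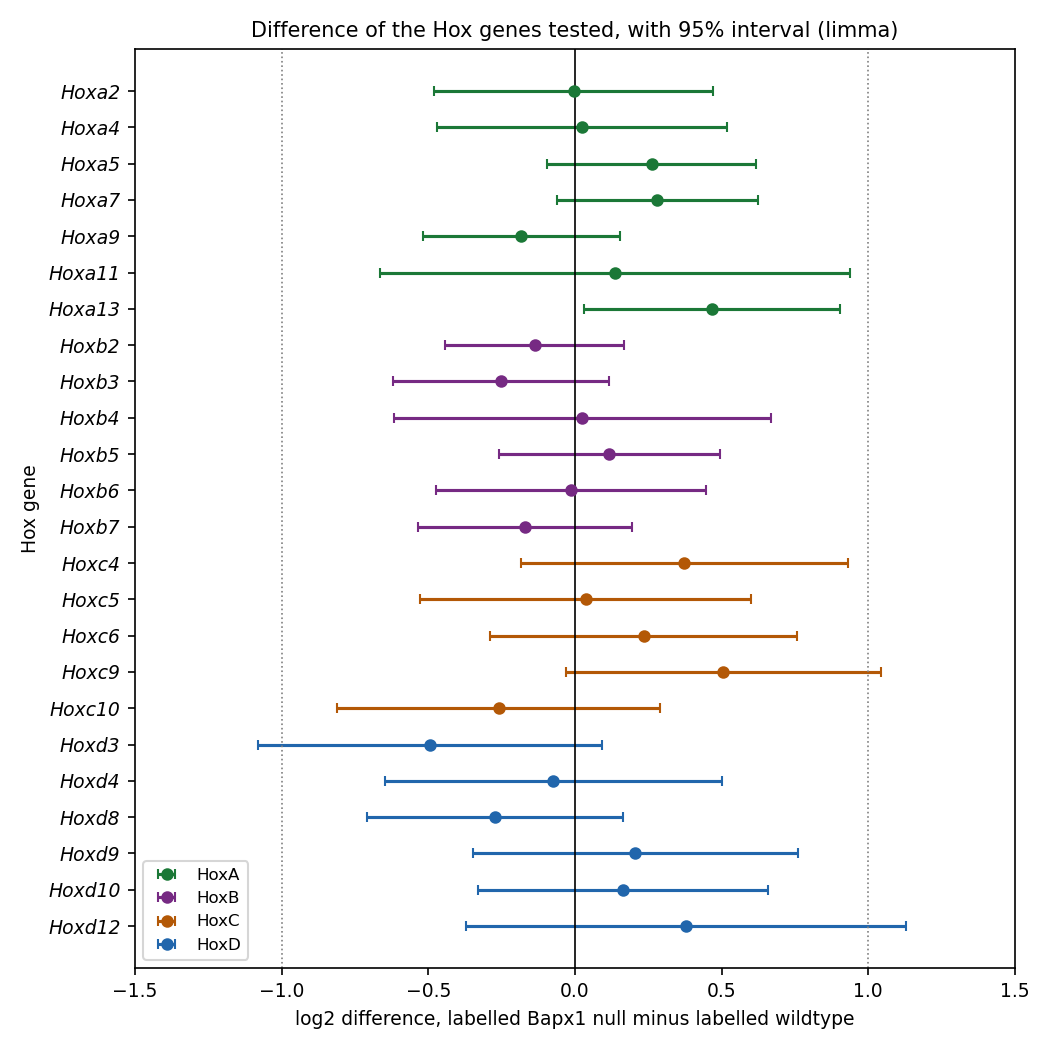
Log2 difference between the genotypes for each of the 24 Hox genes tested (horizontal axis, labelled Bapx1 null minus labelled wildtype) with its 95% interval from limma, by gene on the vertical axis and coloured by cluster. Dotted lines mark 1 log2 unit, and only Hoxc9, Hoxd3 and Hoxd12 have intervals that cross one.

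By direction, 14 Hox genes had a higher and 10 a lower mean in Bapx1 null, a split that became 11 and 13 with each array scaled by its spread over all probes and 17 and 7 with scaling over the detected probes. Here and below, Hox differences are relative to the median of all genes in alternatives that shifted this median by over 0.1. The shift was 0.98 with scaling over all probes, -0.53 without normalization and -0.33 in the processed table of the authors. A sign given for those settings need not be the sign of the difference as fitted. In the main fit the median difference was 0.03, beside 0.07 for all genes. Along the clusters, the median was -0.04 for the 8 tested genes of paralogues 1 to 4, 0.08 for the 8 of paralogues 5 to 8 and 0.19 for the 8 of paralogues 9 to 13. With scaling over all probes these medians became 0.06, 0.38 and -0.37, so that the first and the last turned their sign. With the share of detected probes as a covariate they were -0.08, -0.05 and -0.04, with array weights 0.0035, 0.024 and -0.019, and without Bapx1 null replicates 2 and 3 they were 0.02, 0.0036 and 0.01. By cluster, the median was 0.14 for HoxA, -0.08 for HoxB, 0.23 for HoxC and 0.05 for HoxD.

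Averaged over the 24 genes, the Hox level of an array was 8.49 ± 0.04 (SD, n = 4) in wildtype and 8.54 ± 0.10 in Bapx1 null on the log2 scale. The values of Bapx1 null ran from 8.43 to 8.66 and took in the whole range of wildtype, 8.44 to 8.52.

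The most negative difference of the 24 lay in the anterior part of the clusters. Hoxd3, which patterns the first cervical vertebrae, read 7.25, 7.25, 6.36 and 7.11 on wildtype replicates 1 to 4 and 5.91, 6.87, 6.41 and 6.80 on Bapx1 null replicates 1 to 4. Wildtype replicate 3 lay among the Bapx1 null values, so the groups overlapped. The means were 6.99 ± 0.43 and 6.50 ± 0.44 (SD, n = 4), a difference of -0.49 ± 0.26 (SE) with a 95% interval of -1.08 to 0.09 and an adjusted p of 0.238. It was -0.30 without Bapx1 null replicate 1, -0.71 without wildtype replicate 3 and -1.30 with scaling over all probes.

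Hoxb3, a hindbrain and pharyngeal patterning gene, read 9.03, 8.91, 9.02 and 8.90 on the wildtype arrays and 8.35, 8.58, 8.96 and 8.97 on the Bapx1 null arrays. Replicates 1 and 2 of Bapx1 null were below all other arrays and replicates 3 and 4 were within the wildtype range. The difference was -0.25 ± 0.16 (adjusted p 0.317). Averaged with the other detected probe of the gene, it became 0.18.

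Hoxc4, whose loss in mice disturbs the muscle of the oesophagus, read 5.70, 5.32, 5.54 and 5.34 on the wildtype arrays and 5.56, 6.65, 5.73 and 5.46 on the Bapx1 null arrays. Its difference of 0.37 ± 0.25 (adjusted p 0.328) rested on Bapx1 null replicate 2, was 0.11 without that array, and includes values at background, since the probe was detected on 2 arrays labelled wildtype and 3 labelled Bapx1 null. It turned to -0.66 with scaling over all probes.

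The most anterior genes detected throughout in HoxA and HoxB, Hoxa2 and Hoxb2, both act in hindbrain and neural crest patterning. Hoxa2 read 9.97, 9.02, 9.56 and 9.36 on the wildtype arrays and 9.53, 9.75, 9.14 and 9.47 on the Bapx1 null arrays, so that all Bapx1 null values lay inside the wildtype range. Its difference was -0.0047 ± 0.21, with an interval of -0.48 to 0.47. Hoxb2 was the most even Hox gene in wildtype, at 10.64, 10.63, 10.61 and 10.58, and read 10.60, 10.21, 10.44 and 10.67 in Bapx1 null. That gave -0.14 ± 0.14 (adjusted p 0.508), which turned to 0.66 with scaling over all probes.

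In the middle of the clusters, Hoxa7, a gene of the thoracic level, read 8.37, 8.28, 8.33 and 8.13 on the wildtype arrays and 8.62, 8.73, 8.69 and 8.18 on the Bapx1 null arrays. Bapx1 null replicate 4 fell within the wildtype range and the other 3 arrays lay above it. The difference was 0.28 ± 0.15, with an interval of -0.06 to 0.62 and an adjusted p of 0.248. Taken relative to the median of all genes where an alternative shifted that median, it was positive in every alternative run.

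Hoxd8, which lies next to Hoxd9 in its cluster, read 8.75, 9.08, 8.49 and 9.09 on the wildtype arrays and 8.37, 8.60, 8.35 and 8.99 on the Bapx1 null arrays. The difference of -0.27 ± 0.20 (adjusted p 0.361), taken in the same way, kept its sign in every alternative run. The groups overlapped. A TAAGTG run lies in its promoter window, as shown above.

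Hoxb7 is the last detected gene of HoxB. It read 9.996, 10.27, 10.39 and 10.29 on the wildtype arrays and 10.05, 10.10, 10.37 and 9.74 on the Bapx1 null arrays, a difference of -0.17 ± 0.16 (adjusted p 0.49) that became 0.53 with scaling over all probes. Only Bapx1 null replicate 4 lay outside the wildtype values.

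Hoxc6, the first HoxC gene detected on all arrays, read 10.70, 11.16, 11.07 and 11.60 on the wildtype arrays and 11.23, 11.94, 11.20 and 11.11 on the Bapx1 null arrays. The groups overlapped apart from replicate 2 of Bapx1 null, which was the highest array. Its difference was 0.23 ± 0.23 (adjusted p 0.511), 0.044 without Bapx1 null replicate 2, 0.09 without wildtype replicate 1, 1.61 with scaling over all probes and -0.18 with the share of detected probes as a covariate.

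Hoxa5, whose loss in mice alters the stomach and lung, measured 10.83 in wildtype and 11.09 in Bapx1 null, a difference of 0.26 with an adjusted p of 0.292. The remaining tested genes of paralogues 5 to 8, Hoxb5, Hoxb6 and Hoxc5, differed by 0.12, -0.01 and 0.04.

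The most positive differences were those of posterior genes. Hoxc9, which acts at the thoracic level, read 8.04, 8.12, 7.59 and 8.17 on the wildtype arrays and 8.54, 8.89, 8.72 and 7.80 on the Bapx1 null arrays. The Bapx1 null arrays other than replicate 4 lay above all wildtype arrays. The means were 7.98 ± 0.26 and 8.49 ± 0.48 (SD, n = 4) and the difference 0.51 ± 0.24, with an interval of -0.03 to 1.04 and an adjusted p of 0.201.

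Hoxa13, which is needed for the hindgut, the urogenital tract and the digits, read 5.83, 5.51, 5.97 and 5.81 on the wildtype arrays and 5.87, 6.75, 6.14 and 6.22 on the Bapx1 null arrays. Only Bapx1 null replicate 1 lay within the wildtype range. Most of these are levels close to background, though the probe was detected on all 8 arrays. Before normalization, Bapx1 null replicate 2 had the lowest intensity of the 8 arrays, 79.3 against 88.6 to 126.2. After normalization it was the highest. The difference was 0.47 ± 0.20, with an interval of 0.03 to 0.90, an unadjusted p of 0.0382 and an adjusted p of 0.167. With scaling over all probes it turned to -0.52 relative to the median of all genes.

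Hoxd12, a gene of the distal limb and the anal sphincter, read 6.73, 6.41, 7.31 and 6.25 on the wildtype arrays and 6.17, 7.80, 7.08 and 7.15 on the Bapx1 null arrays. The lowest and the highest of the 8 values both belonged to Bapx1 null. A difference of 0.38 ± 0.34 (adjusted p 0.456) resulted, which was 0.13 without Bapx1 null replicate 2 and -0.28 with scaling over all probes.

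Hoxc10 and Hoxa9 had negative differences. Hoxc10, a lumbar and hindlimb gene, read 8.24, 8.01, 7.98 and 7.41 on the wildtype arrays and 8.03, 7.92, 7.59 and 7.05 on the Bapx1 null arrays, and the 2 groups overlapped over most of their range. The difference of -0.26 ± 0.25 (adjusted p 0.488), relative to the median where that was shifted, was negative in every alternative run. With 1 array left out it ran from -0.43 without wildtype replicate 4 to -0.060 without Bapx1 null replicate 4. With scaling over all probes it was -0.61.

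Hoxa9, known for its role in blood stem cells and in the lumbar skeleton, read 5.63, 5.98, 5.63 and 5.85 on the wildtype arrays and 5.82, 5.36, 5.69 and 5.50 on the Bapx1 null arrays. These are levels close to background, where the probe was not detected on 1 array labelled Bapx1 null. The difference was -0.18 ± 0.15 (adjusted p 0.424), and 0.01 with scaling over the detected probes.

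The other genes tested were Hoxa4, Hoxb4, Hoxd4, Hoxa11, Hoxd9 and Hoxd10, with differences from -0.07 for Hoxd4 to 0.21 for Hoxd9. Hoxb4, which holds both forms of the Bapx1 core in its promoter window, differed by 0.03, at 10.82 in wildtype and 10.85 ± 0.66 in Bapx1 null. Hoxa11, a gene of the limb and the uterus, read 7.93 ± 0.52 and 8.06 ± 0.71 (SD, n = 4), the widest wildtype spread of the 24.

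**Figure D3:**
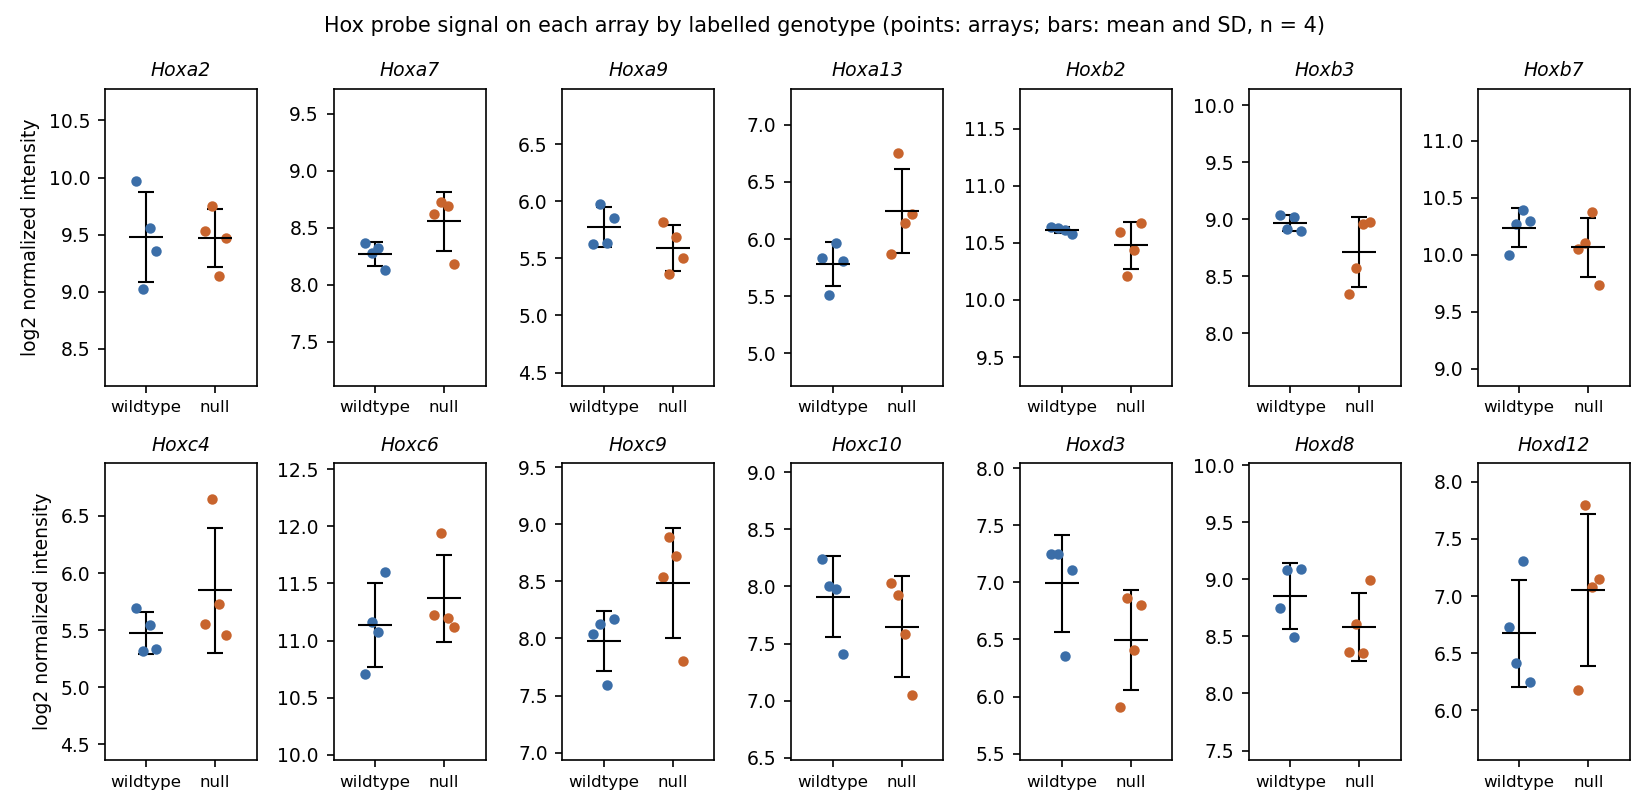
Log2 normalized intensity (vertical axis) of 14 Hox genes on each array, for the arrays labelled wildtype (blue) and Bapx1 null (orange), each panel spanning the same log2 range. Points are arrays and bars the mean and SD (n = 4), and the points of the labels overlap in every panel.

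The spread within a genotype was wider in Bapx1 null. The SD of the 4 arrays was higher there for 22 of the 24 Hox genes, against 87.8% of all genes, and its median was 0.25 in wildtype and 0.39 in Bapx1 null. Over all genes tested these medians were 0.14 and 0.33. Bapx1 null replicate 2 was the highest of the 8 arrays in 10 Hox genes (41.7%) and the lowest in 5 (20.8%), near the shares over all genes of 38.4% and 23.3%. Its low signal over background stands beside the values of Hoxc4, Hoxc6, Hoxa13 and Hoxd12 above, in each of which it was the highest array, and its part in them was not tested.

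Deviations from the genotype mean were compared between Hox genes over the 8 arrays, as a description of how the genes vary together. The median correlation was 0.21 over the 61 pairs of genes of the same cluster and -0.06 over the 215 pairs from different clusters, with -0.01 over 17 pairs of equal paralogue number. HoxD stood out with a median of 0.58 over its 15 pairs, against 0.24 in HoxB, 0.17 in HoxC and -0.06 in HoxA. Hoxd9 followed Hoxd10 at 0.93 and Hoxd3 at 0.92, and wildtype replicate 3 was the lowest wildtype array in 5 of the 6 HoxD genes. All these values share the same 8 RNA samples and arrays.

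Of the Hox genes, 6 had a second probe that passed the filter, so that the gene was read by 2 probes. For Hoxa2 the 2 probes moved together over the 8 arrays (r = 0.86) and differed between the genotypes by -0.0047 and 0.01. For Hoxc10 they did as well (r = 0.84), at -0.26 and -0.09, and for Hoxb7 less closely (r = 0.57), at -0.17 and -0.06.

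The probes of the other 3 genes gave opposite signs. The probes of Hoxb3 did not move together (r = 0.01), and the second of them, ILMN_3071262, read 7.15, 7.10, 6.94 and 6.64 on the wildtype arrays and 7.07, 7.59, 8.65 and 6.98 on the Bapx1 null arrays. That probe differed by 0.62 ± 0.34, carried by Bapx1 null replicate 3, against -0.25 for the tested probe. Hoxa9 gave -0.18 and 0.13 (r = 0.19) and Hoxd9 gave 0.21 and -0.19 (r = 0.47). Which transcripts these probes bind was not analysed here.

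**Figure D4:**
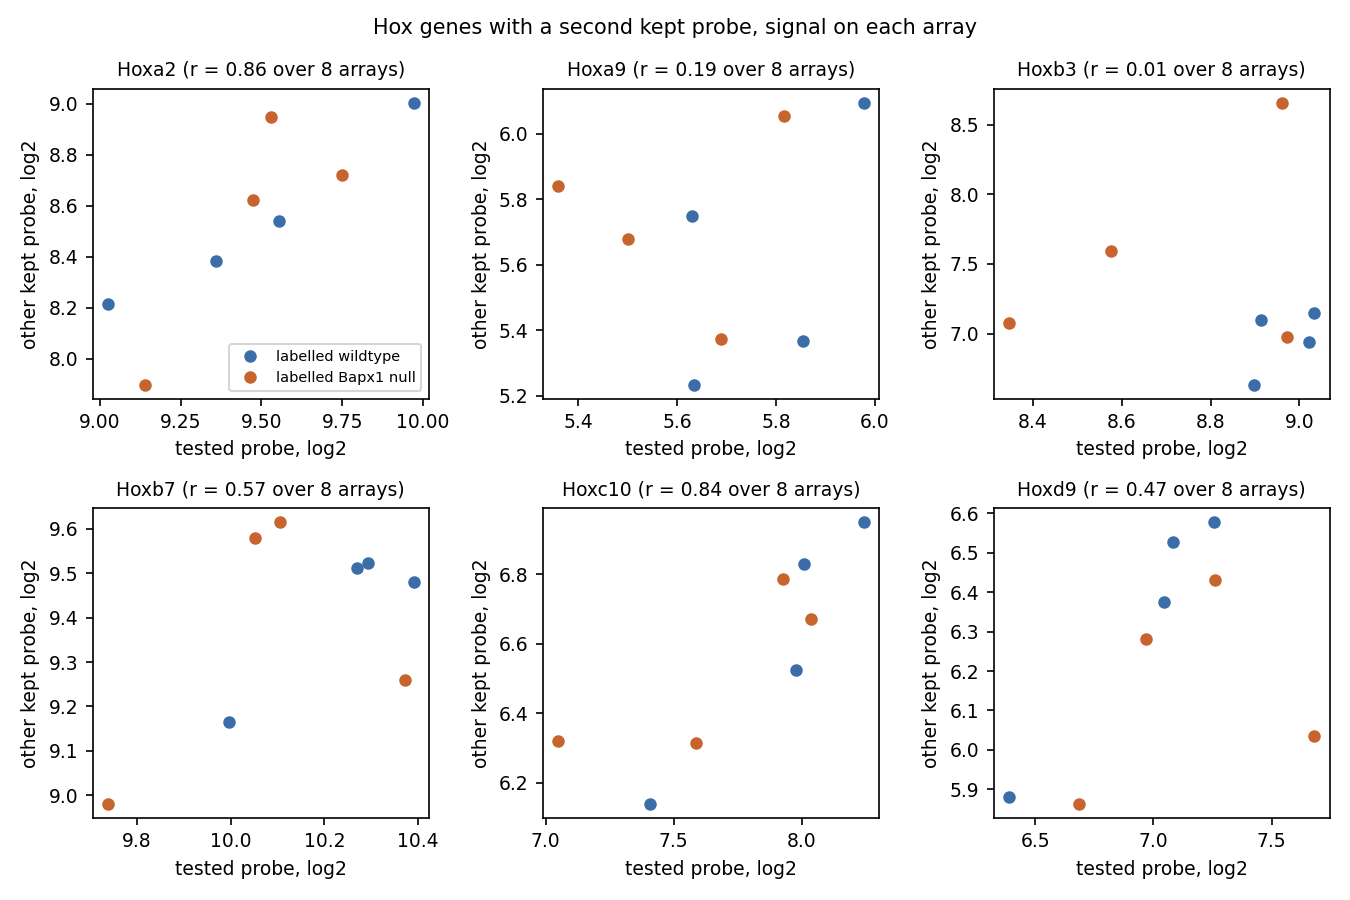
Signal on each of the 8 arrays for the 6 Hox genes with 2 detected probes, with the tested probe on the horizontal axis and the other probe on the vertical axis, both as log2 normalized intensity. Points lie along a line for Hoxa2 and Hoxc10 and show no relation for Hoxb3, where 1 array labelled Bapx1 null stands apart at 8.65 on the second probe.

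The cofactors of Hox proteins were measured in the same cells. Of 8 TALE genes on the platform, 7 were tested and none passed the threshold, with a median difference of 0.02. Meis1 read 13.26 ± 0.07 in wildtype and 13.33 ± 0.15 in Bapx1 null, and Meis2 12.74 ± 0.07 and 12.68 ± 0.05 (SD, n = 4). Their 95% intervals were -0.22 to 0.35 for Meis1 and -0.32 to 0.19 for Meis2. Pbx3 had the lowest difference, -0.59 ± 0.38, and was detected on 4 arrays labelled wildtype and 2 labelled Bapx1 null.

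Genes that set Hox domains gave few measurements. Retinoic acid receptors and Cdx factors act upstream of the clusters, and only 4 of 15 such genes on the platform were tested, none of them past the threshold. Rarb differed by 0.16, Rarg by 0.09, Nr6a1 by 0.25 and Aldh1a2, which makes retinoic acid, by -0.40 ± 0.26. Cdx1 was detected on 3 arrays labelled wildtype and Cdx2 on 1, neither on an array labelled Bapx1 null, and Cdx4 on none. No ParaHox gene of 6 was tested.

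Trithorax and Polycomb genes, which keep Hox clusters active or silent, were represented by 26 tested genes of 29, with a median difference of -0.22 and none past the threshold. The Polycomb subunit Bmi1 was the lowest, at 7.72 ± 0.08 in wildtype and 6.20 ± 1.40 in Bapx1 null, a difference of -1.52 ± 0.56 with an adjusted p of 0.138, and it was detected on 2 arrays labelled Bapx1 null. Rnf2 differed by -0.78 and Ring1, its paralogue, by 0.50. Without Bapx1 null replicate 4, where 12.7% of all genes passed the threshold, 4 genes of this list did so, with an adjusted p of 0.0492 for Bmi1, 0.0369 for Rnf2, 0.0453 for Ring1 and 0.0499 for Pcgf3.

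The genes that flank the clusters were also without a call, in 15 tested of 20. Evx1 and Evx2, the homeobox genes beyond the posterior ends of HoxA and HoxD, were detected on no array. The lowest flanking gene was Hnrnpa3, at -1.70 ± 0.57 with an adjusted p of 0.126, which passed at 0.00889 without Bapx1 null replicate 1, where 1.09% of all genes passed. Hnrnpa1 passed at 0.0446 without Bapx1 null replicate 4, where 12.7% of all genes did.

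Regional markers were read beside the Hox genes. Of the genes of the stomach and pylorus 10 of 13 were tested and none passed the threshold. Of the hindgut and caudal genes 4 of 7 were tested, and Tbx3 alone passed, at 9.33 ± 0.19 in wildtype and 8.25 ± 0.34 in Bapx1 null (difference -1.08 ± 0.19, adjusted p 0.0372, against 0.787% of all genes past the threshold). Tbx3 passed in 12 of the 25 alternatives. Those that lost the call included scaling over all probes (adjusted p 0.729), a replicate block (0.0508) and leaving out any 1 wildtype array (0.0811 to 0.135), Bapx1 null replicate 1 (0.0584) or Bapx1 null replicate 2 (0.0513). The adjusted p of 0.729 belongs to the difference as fitted, -0.20. That scaling raised the median of all genes by 0.98, and 0 of all genes passed.

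Since posterior Hox genes are also expressed outside the gut, markers of tissues near the dissection were counted. Of 11 limb mesenchyme genes 7 were detected on no array, Tbx4, Tbx5, Lmx1b and Shox2 among them, and the 4 tested ones had mean levels per array of 6.61 to 7.55 in wildtype and 6.76 to 8.004 in Bapx1 null. Of 11 urogenital genes 5 were never detected, including Pax2 and Pax8, and the 6 tested ones had mean levels of 7.71 to 8.29 and 7.33 to 8.12. Of 14 somite genes 4 were never detected, including Pax3 and Pax9, and the 8 tested ones had mean levels of 6.78 to 8.04 and 6.19 to 7.06. Meox1, Meox2, Tcf15, Foxc2, Tbx6 and Scx of this list were detected on all 8 arrays. Their means over the wildtype arrays ran from 6.08 for Tcf15 to 8.76 ± 1.23 (SD, n = 4) for Foxc2. Over the Bapx1 null arrays they ran from 6.41 for Tcf15 to 8.34 for Scx. Wildtype replicate 1 gave 10.12 for Foxc2 and 10.06 for Meox2. Single genes departed from the mean levels of their lists. Alx4, of the limb list, was detected on 0 arrays labelled wildtype and on 4 labelled Bapx1 null. It was tested only through the latter arrays, so its adjusted p of 0.059 carries that selection. Fgf10, also expressed in gut mesenchyme, was at 10.54 and 10.997. Foxd1, of the urogenital list, was at 9.94 ± 1.21 and 7.02 ± 1.94 and Tcf21 at 9.89 and 10.34, while Foxc1, of the somite list, was at 8.21 ± 1.11 and 6.21 ± 0.81. None of the tested genes of these lists passed the threshold, and the part of such cells in the Hox signal was not tested.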

How the data were processed

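RNA of EGFP-sorted gut cells from 4 samples labelled wildtype and 4 labelled Bapx1 null was measured on 8 arrays. The authors deposited probe intensity on a linear scale, exported with GenomeStudio, without background subtraction or normalization (values 29.8 to 45724). Beside each intensity the deposited file held a fraction from 0 to 1, which followed the signal (Spearman correlation of at least 0.976) and was read as a detection score. The authors also deposited a log2 table, equal to log2 intensity minus the array median and a probe baseline of unknown origin, with array medians between -0.0112 and 0.0145; its scale and direction are thereby known. The 45281 rows of both tables were joined on differences between arrays (largest mismatch 1.82e-06, closest other row 0.00905).

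Intensities were background corrected with limma 3.58.1 in R 4.3.3 (nec, controls inferred from the detection p, offset 16), log2 transformed and quantile normalized. Probes with a detection p under 0.01 on at least 4 arrays were kept (17440). Of several kept probes of a gene the one with the highest mean stood for it, which gave 9784 genes, fitted with lmFit and eBayes on genotype alone, with p adjusted after Benjamini-Hochberg with a threshold of 0.05. The code was tested on simulated data. The platform annotation gave 1 symbol for 34885 probes, several for 18 and none for 10378. All 38 Hox symbols equalled those of RefSeq. Arrays carry no read depth, and their number limits the precision. For the bound of Nkx3-2, each array without detection entered with its own value or the lowest value of a detected probe on it, whichever was higher.

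Values on each array were given for the 5 tested Hox genes with the most positive difference, the 5 with the most negative and the first and last gene of each cluster detected on all arrays. Cofactor, regulator and marker genes named without passing the threshold, and all second probes, were chosen after their values were seen. The members, lists and alternatives were chosen with earlier results of these data known. The alternatives for all genes, for Tbx3, Pf4 and Ppbp and for the cofactor and regulator lists were added after seeing the data. The tests of the methods of the study, a scaling by spread and an analysis of variance, were run as alternatives.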

Additional observations from a re-analysis of the deposited data

Results flagged for a closer look

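In 3 of the 48 groups of 4 arrays examined (24 Hox genes in each genotype), 1 array stood apart from the other 3 by Dixon's criterion, which chance alone meets in about 1 of 20 groups. Hoxd3 read 6.36 on wildtype replicate 3, against 7.11 to 7.25 on the other wildtype arrays. Hoxb5 read 10.11 on wildtype replicate 1, against 10.53 to 10.61. Hoxc6 read 11.94 on Bapx1 null replicate 2, against 11.11 to 11.23 on the other arrays of that label.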

How the results depend on the processing

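Differences here are relative to the median of all genes where an alternative shifted that median by over 0.1, which was by -0.53 without normalization, -0.33 in the processed table and 0.98 with each array scaled by its spread over all probes. No Hox gene passed the threshold in 24 of the 25 alternatives, and leaving out 1 array gave 0 to 1. Over all genes the 77 calls became 0 with either scaling over all probes or the test of the methods, and with 1 array left out 4, 7, 32 and 4 without wildtype replicates 1 to 4, 6 without replicate 3 of Bapx1 null and 1245 without its replicate 4. Of the other alternatives, 2 genes passed with the share of detected probes as a covariate, 8 in the processed table, 45 without normalization, 49 without a filter and 202 with array weights. Of the cofactor and regulator genes, 0 passed in the main fit and 0 to 5 with 1 array left out, 1 of them (Hnrnpa3) without Bapx1 null replicate 1. The number of Hox genes detected on all arrays was 18 at a detection p of 0.001, 23 at 0.05 and 23 without Bapx1 null replicate 2, against 21.

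The median Hox difference of 0.03 became -0.10 with scaling over all probes and in the test of the methods, 0.12 with scaling over the kept probes and -0.060 with the covariate, and ran from 0.0073 to 0.08 with 1 array left out. Scaling over all probes, alone or in the test of the methods, turned Hoxa13 to -0.52, Hoxa2 to 0.40, Hoxb2 to 0.66, Hoxb7 to 0.53, Hoxc4 to -0.66 and Hoxd12 to -0.28. Scaling over the kept probes turned Hoxa2 to 0.048 and Hoxa9 to 0.012, and the processed table turned Hoxa9 to 0.051. The mean of the kept probes gave Hoxa2 0.0031 and Hoxb3 0.18, and array weights gave Hoxa2 0.039 and Hoxd12 -0.019. The covariate turned Hoxb2 to 0.073, Hoxc4 to -0.18, Hoxc6 to -0.18 and Hoxd12 to -0.11. Without Bapx1 null replicates 2 and 3, Hoxa2 was 0.024, Hoxb2 0.019 and Hoxd12 -0.0100. With 1 array left out, Hoxa2 ran from -0.16 to 0.16, Hoxc9 from 0.37 to 0.74, Hoxa13 from 0.30 to 0.59, Hoxb3 from -0.34 to -0.13, Hoxb2 from -0.20 to -0.046, Hoxb7 from -0.27 to -0.061 and Hoxd8 from -0.41 to -0.19. In each case the cause was not tested. Hoxa7, Hoxc9, Hoxc10, Hoxd3 and Hoxd8 kept their sign in all 25. Hoxa9 and Hoxc4 gave no value with detection on all 8 arrays.

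No pairing by replicate number was visible, since deviations of same-numbered arrays correlated at 0.15, -0.18, -0.06 and -0.14. These values cannot show whether same-numbered samples were handled together. With a replicate block, 0 Hox genes passed (lowest adjusted p 0.239), as did 51 genes in all. The limits of the Hox values are signal over background, lowest on Bapx1 null replicate 2, and the small number of arrays.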
